A study of Mus musculus with 6 samples.

Results

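The genes described here are the cathepsins, the subunits of the vacuolar proton pump (V-ATPase), the lysosomal membrane proteins Lamp1 and Lamp2, and the transcription factors Tfeb, Tfe3 and Mitf. They were chosen by symbol, as every name of the form Cts plus 1 letter or digit except Ctss, every name that begins with Atp6v, and the 5 genes just listed. This gave 49 of the 24346 gene symbols in the files, of which 21 are cathepsins, 23 are V-ATPase genes and 5 are the Lamp and MiT/TFE genes. The S37A group was 3 libraries of primary stromal cells, grown out of prostates of C57BL/6 mice of 8 to 12 weeks and given a lentiviral vector with the S37A cDNA of β-catenin. The vector group was 3 libraries of the same kind of cells, titled as vector only. Culture was on collagen-coated plates in medium with dihydrotestosterone at 1e-10 M for both groups, and a short replating step removed cells that did not attach. β-catenin carries the canonical Wnt signal, and its S37A form lacks a serine through which the protein is marked for breakdown. The comparison asked which transcripts differ in stromal cells with this stable form. The promoter that drives the cDNA, the share of cells that carried it, and whether the libraries came from separate mice or cultures are not given in the sources used here, so p-values measure only the spread between these libraries, which may be technical.

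Lysosomes break down proteins, lipids and sugars taken up by the cell or delivered by autophagy. Cathepsins are the main lysosomal proteases, and most of them work best at low pH. The V-ATPase keeps the lumen acidic: its cytosolic V1 sector hydrolyses ATP, and its membrane Vo sector moves protons. Lamp1 and Lamp2 coat the inner face of the lysosomal membrane. Tfeb, Tfe3 and Mitf are related helix-loop-helix factors that bind E-boxes with the core CACGTG in the promoters of many lysosomal genes, a set known as the CLEAR network. Wnt signalling has been linked to lysosomes and to Mitf in other cell types.

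Values are FPKM, in which fragments are divided by transcript length and by the depth of the library, a scale per length on which levels of different genes can be compared. The level of the confidence intervals beside the FPKM is not given in the sources used here. If they are assumed to reach 2 SD of the counting error to either side, their widths correspond to 39.0 to 44.8 M fragments in S37A libraries and 44.3 to 48.8 M in vector libraries. Ctnnb1, the β-catenin gene, had 132, 144 and 146 FPKM in S37A libraries, against 116, 99.1 and 116 FPKM in vector libraries, in files that do not separate the cDNA from the cells' own gene (log2 difference 0.35, adjusted p 0.0158, and 0.0534 and 0.0585 without S37A replicates 2 and 3). Axin2, a feedback gene of the Wnt pathway, averaged 2.95 ± 0.296 FPKM in S37A and 0.131 ± 0.0385 FPKM in vector libraries (SD, n = 3 each). The 11 markers listed for the stromal identity in the labels ranged widely in level. Col1a1, a collagen gene, averaged 1970 ± 111 FPKM in S37A and 1682 ± 209 in vector libraries. Vim, the vimentin gene, averaged 1665 ± 52.6 FPKM in S37A and 1587 ± 83.1 in vector libraries. Pdgfra averaged 15.8 ± 0.408 FPKM in S37A and 18.8 ± 0.861 in vector libraries. Lum, at 0.398 ± 0.131 and 0.295 ± 0.0321 FPKM, was too low to test. Of the 10 tested, 3 were called higher in S37A and 1, Pdgfra, lower.

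Of the 49 genes, 32 reached a mean of 0.5 FPKM over the 6 libraries and were tested, namely 11 cathepsins, 16 V-ATPase genes and all 5 Lamp and MiT/TFE genes. In FPKM as deposited, 9 of these 32 were lower in S37A cells and 0 were higher, at an adjusted p under 0.05 in limma. All 9 differences were small, and mean FPKM fell by 7.85% to 12.9%. The 9 make 28.1% of the tested members, against 19.9% of all 12022 genes tested that were called lower and 6.06% that were called higher. At an unadjusted p under 0.05, 11 members were lower and 0 were higher. The median log2 difference, S37A minus vector, was -0.07 over the 32 members, with a range of -0.20 to 0.13, and also -0.07 over all genes tested.

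The libraries of the groups did not overlap for 13 members that were lower in S37A (40.6%) and 2 that were higher (6.25%), Atp6v0a2 and Tfeb. Over all genes the matching shares were 36.5% and 11.3%. Of all genes tested, 8353 had a negative and 3669 a positive difference. After median-ratio scaling, which sets the typical gene equal in all libraries and moves the median of all genes from -0.07 to -0.00, limma called 0 members in either direction, with 3 lower and 6 higher at an unadjusted p under 0.05. All genes then split into 8.07% lower and 10.4% higher, 970 and 1251 genes, against 2393 and 729 in FPKM as deposited. The members split evenly, 16 below 0 and 16 above, and their median was -0.00. On that scale the groups did not overlap for 6 members lower in S37A (18.8%) and 8 higher (25%), against 20.4% and 20.7% of all genes. Quantile normalization called 3 members lower and 0 higher, against 7.96% and 9.1% of all genes. Scaling without the 100 most abundant genes also called 3 lower and 0 higher, against 12.6% and 7.79%. At an unadjusted p under 0.05, 8 members were lower and 4 higher with quantile normalization, and 8 lower and 3 higher with the other scaling.

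**Figure D1:**
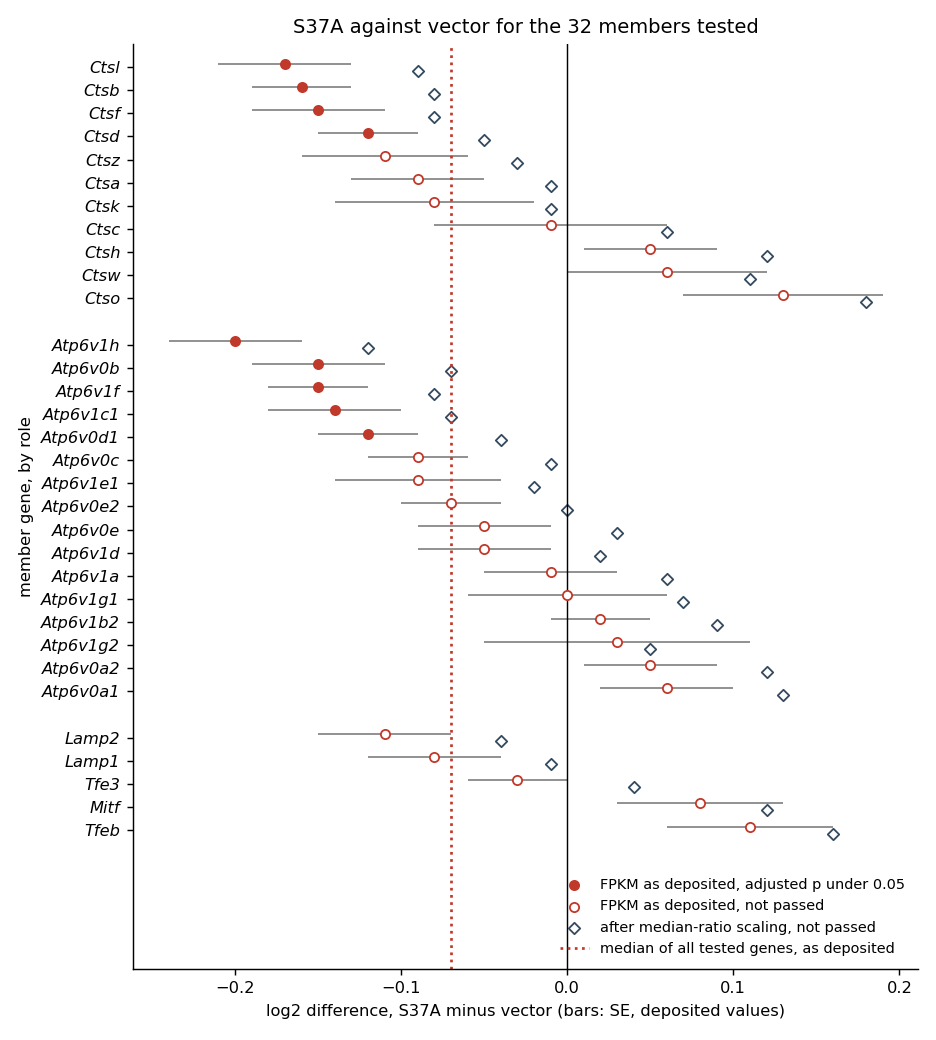
Log2 difference in FPKM, S37A minus vector, for the 32 members tested, by role; circles are FPKM as deposited (filled where the adjusted p was under 0.05, bars are the SE), diamonds are after median-ratio scaling, and the dotted line is the median of all genes, -0.07. The 9 filled circles lie between -0.20 and -0.12, and every diamond sits to the right of its circle.

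Among the cathepsins, 4 of 11 tested (36.4%) were lower in S37A cells and 0 were higher: Ctsb, Ctsd, Ctsf and Ctsl. Over all genes tested, 19.9% were lower and 6.06% higher. The median log2 difference was -0.09 over the 11 cathepsins and -0.07 over all genes. The calls were made on FPKM as deposited with all 6 libraries, and they also depended on the filter and the fit. Of the 4, 1 was kept with no filter, 1 with the replicate block and 2 with no intensity trend. All 4 were lost after median-ratio scaling and when S37A replicate 3 was left out, while their differences stayed negative in all 16 alternative settings. The exact two-sided permutation test over the 6 libraries gave 0.1 for each, the smallest p that 3 libraries against 3 allow.

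Ctsd, the main aspartic protease of lysosomes, was the most abundant cathepsin, with 707, 702 and 682 FPKM in S37A libraries, against 778, 759 and 743 FPKM in vector libraries. The groups did not overlap, and the mean fell by 8.26%, to 697 ± 13.3 FPKM in S37A, against 760 ± 17.6 FPKM in vector libraries (SD, n = 3 each). The log2 difference was -0.12 with an SE of 0.03 and an adjusted p of 0.0366, or -0.05 and 0.365 after median-ratio scaling, and 4 of the 16 settings kept the call, which was lost with any single library left out. Ctsd lies at chr7:142375911-142388038 (mm10, minus strand). The 250 bases before its RefSeq start, chr7:142387828-142388077 in GRCm38.p6, are shown because they hold CACGTG, in capitals, at both 245 and 98 bases before the start.
Ctsd: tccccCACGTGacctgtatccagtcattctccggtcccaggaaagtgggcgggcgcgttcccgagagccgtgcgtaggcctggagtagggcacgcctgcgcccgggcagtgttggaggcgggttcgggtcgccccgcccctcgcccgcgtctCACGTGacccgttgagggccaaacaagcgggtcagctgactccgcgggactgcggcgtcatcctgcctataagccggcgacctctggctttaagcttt

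Ctsl, a cysteine endopeptidase, followed with 327, 341 and 330 FPKM in S37A libraries, against 394, 374 and 354 FPKM in vector libraries. All S37A libraries lay below all vector libraries, and the mean fell by 11%. Its log2 difference was -0.17 with an SE of 0.04 and an adjusted p of 0.0342, against -0.09 and 0.182 after median-ratio scaling, and 6 settings kept the call, among single libraries left out only that without vector replicate 3. A processed pseudogene, Gm49230, is annotated on the same strand within Ctsl (chr13:64359337-64370890), so reads could be shared between them. Ctsb, a cysteine protease that also trims peptide ends, had 188, 192 and 186 FPKM in S37A libraries, against 216, 209 and 207 FPKM in vector libraries. Ctsb (chr14:63122462-63145923) was the most stable cathepsin call: the log2 difference was -0.16 with an SE of 0.03 and an adjusted p of 0.0157, and 14 of 16 settings kept it, with adjusted p from 0.0051 to 0.111. The only settings without the call were median-ratio scaling, at -0.08 with an adjusted p of 0.111, and the fit without S37A replicate 3. Fdft1 overlaps Ctsb on the opposite strand and is listed at 0 in all 6 libraries. The library kit does not mark strand, so reads of such partners cannot be told apart.

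Ctsf, a less abundant cysteine cathepsin at chr19:4855130-4860918, had 15.3, 14.9 and 14.5 FPKM in S37A libraries, against 17.6, 16.3 and 16.2 FPKM in vector libraries. The groups stood apart by a narrow margin. The log2 difference was -0.15 with an adjusted p of 0.0415, and 3 settings kept the call, none of them with a library left out. Ctsz, a carboxypeptidase, had 193, 193 and 194 FPKM in S37A libraries, against 219, 216 and 191 FPKM in vector libraries. Vector replicate 3 thus overlapped the S37A libraries while the other vector libraries did not. Its log2 difference was -0.11 with an adjusted p of 0.17, and 0.0341 without vector replicate 3. Nelfcd, which overlaps Ctsz on the opposite strand, is listed at 0 in 5 libraries and at 12.1 FPKM in vector replicate 3, the library in which Ctsz was lowest. The part of Nelfcd in that Ctsz value was not tested.

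The remaining 6 tested cathepsins did not pass. Ctsa, a serine carboxypeptidase that also protects other lysosomal enzymes, averaged 68.9 ± 2.24 FPKM in S37A and 73.3 ± 2.1 in vector libraries. Ctsk, the collagen-degrading cathepsin best known from osteoclasts, averaged 51.1 ± 3.34 FPKM in S37A and 54 ± 3.06 in vector libraries. Osteoclast markers were low in both groups, with 4 of 9 tested, 0 called in limma in either direction, 0 at an unadjusted p under 0.05, and summed levels of 8.16 to 8.73 FPKM in S37A and 7.95 to 8.64 in vector libraries. Ctsh, an aminopeptidase, and Ctsc, a dipeptidyl peptidase that activates granule proteases, had log2 differences of 0.05 and -0.01. Ctso and Ctsw, with 3.17 and 2.9 FPKM in S37A libraries on average, had the largest positive values among the cathepsins, 0.13 and 0.06, with adjusted p of 0.171 and 0.532. Fibp, at a mean of 15.3 FPKM, overlaps the much lower Ctsw on the opposite strand.

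The summed cathepsin level was 1598, 1623 and 1579 FPKM in S37A libraries, against 1811, 1747 and 1689 FPKM in vector libraries, without overlap. After median-ratio scaling the sums were 1660, 1652 and 1610 FPKM in S37A, against 1779, 1686 and 1647 FPKM in vector libraries, which overlap. The make-up of that sum was nearly the same in both groups: Ctsd gave 43.6 ± 0.604% of it in S37A and 43.5 ± 0.519% in vector libraries. Ctsd, Ctsl, Ctsz and Ctsb together gave 88.2 ± 0.308% in S37A and 88.8 ± 0.333% in vector libraries. Ratios between genes of a library do not depend on scaling. For Ctsb over Ctsh, a pair picked after its differences were seen and given as a description only, the ratio was 6.17, 5.98 and 6.27 in S37A libraries, against 7.02, 7.01 and 7.26 in vector libraries.

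**Figure D2:**
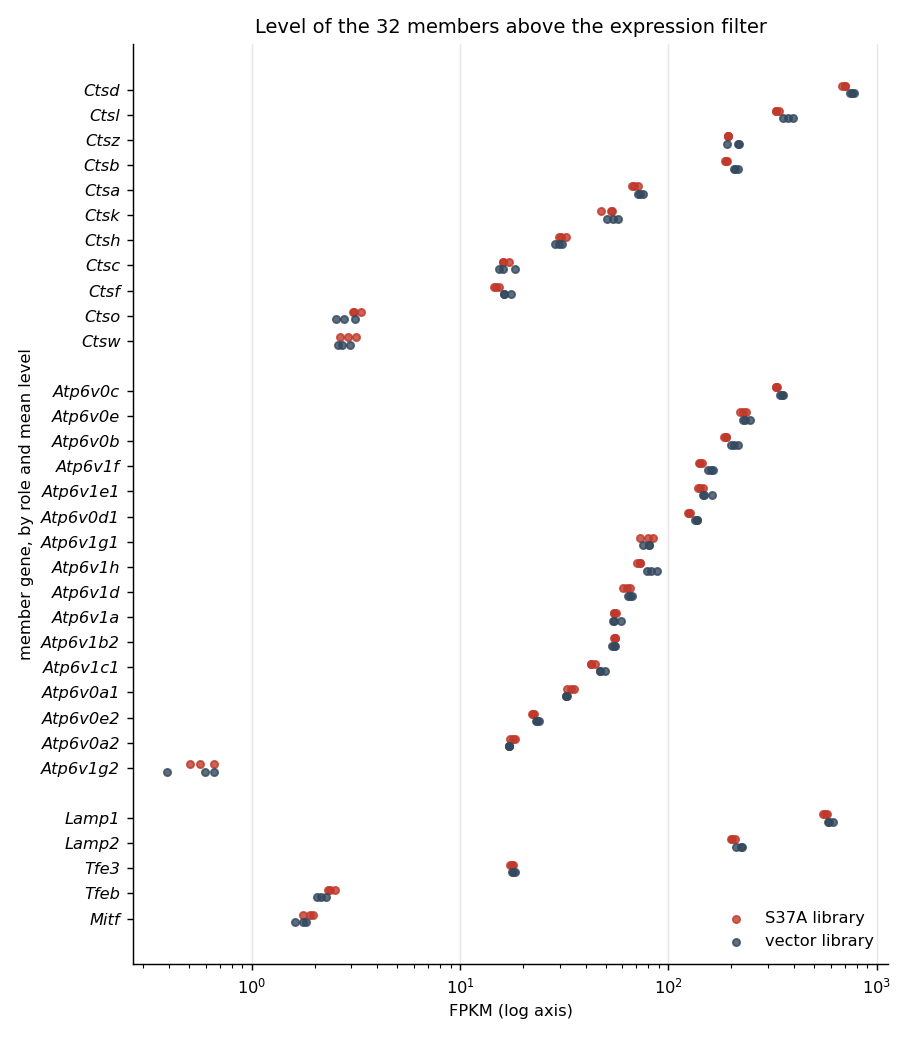
FPKM of the 32 tested members in each library on a log axis, by role and mean level, with S37A libraries in red above vector libraries in blue. Levels span from 0.393 FPKM (Atp6v1g2) to 778 FPKM (Ctsd).

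The 10 untested cathepsins were at or near 0. Cts3, Cts6, Cts7, Cts8, Ctsj, Ctsm, Ctsq and Ctsr, a rodent-specific family known from placenta, lie together at chr13:61000179-61570127 and reached at most 0.0353 FPKM in any library. Ctse, an aspartic protease of immune and stomach cells, reached 0.0341 FPKM, and Ctsg, a protease of neutrophil granules, is listed at 0 in all 6 libraries.

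Of the 16 V-ATPase genes tested, 5 (31.2%) were lower in S37A cells and 0 were higher, against 19.9% lower and 6.06% higher over all genes. The 5 were Atp6v1h, Atp6v1f and Atp6v1c1 of V1, and Atp6v0b and Atp6v0d1 of Vo. The median log2 difference was -0.06 over the 16 and -0.07 over all genes. As for the cathepsins, none of the 5 calls held after median-ratio scaling or without S37A replicate 3. Each of the 5 differences stayed negative in all 16 alternative settings, and each exact permutation p was 0.1. Atp6v1h (chr1:5070018-5162529), the H subunit that caps the V1 sector and regulates its activity, showed the largest difference of all 32 members. It had 73.3, 73.2 and 71 FPKM in S37A libraries, against 82.7, 88.1 and 79 FPKM in vector libraries. The groups were well apart, and the mean fell by 12.9%. The log2 difference was -0.20 with an SE of 0.04 and an adjusted p of 0.0215, 13 settings kept the call, and median-ratio scaling gave -0.12 and 0.0827. Leaving out S37A replicate 2 also ended this call. Rgs20, on the opposite strand of Atp6v1h, averaged 0.954 ± 0.117 FPKM in S37A and 1.18 ± 0.137 in vector libraries.

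Atp6v1f, the F subunit of the central rotor at chr6:29467718-29470512, had 140, 142 and 145 FPKM in S37A libraries, against 163, 160 and 154 FPKM in vector libraries. No libraries overlapped, the log2 difference was -0.15 with an adjusted p of 0.0209, and 10 settings kept the call, which was lost without any 1 of the S37A libraries or without vector replicate 2. Atp6v1c1 (chr15:38661933-38692446), the C subunit that holds V1 to Vo, had 42.5, 42.7 and 44.6 FPKM in S37A libraries, against 47.1, 49.4 and 46.8 FPKM in vector libraries. Its log2 difference was -0.14 with an adjusted p of 0.0334, kept in 7 settings and lost without any 1 of the S37A libraries or without vector replicate 2 or 3. The other V1 genes tested did not pass. Atp6v1a and Atp6v1b2, the A and B subunits that form the ATP-hydrolysing ring, averaged 55.3 ± 0.749 and 55.1 ± 0.409 FPKM in S37A, against 55.9 ± 2.78 and 54.4 ± 1.15 FPKM in vector libraries. The stalk and rotor genes Atp6v1e1, Atp6v1d and Atp6v1g1 had log2 differences of -0.09, -0.05 and 0.00.

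The V1 genes called lower can also be set against the B subunit within each library, which takes out the scaling. These genes were picked for their calls and Atp6v1b2 for its small difference, so the ratios describe the same differences again and were not tested. Atp6v1h over Atp6v1b2 was 1.32, 1.33 and 1.3 in S37A libraries, against 1.52, 1.58 and 1.48 in vector libraries. The same ratio averaged 2.58 ± 0.0712 in S37A and 2.91 ± 0.0618 in vector libraries for Atp6v1f, and 0.785 ± 0.0264 and 0.878 ± 0.0126 for Atp6v1c1.

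In the Vo sector, Atp6v0c, the proton-carrying ring subunit, was the most abundant V-ATPase gene, with 328, 333 and 329 FPKM in S37A libraries, against 355, 343 and 351 FPKM in vector libraries. The groups did not overlap, but the log2 difference of -0.09 had an adjusted p of 0.0716. A fit with sample weights gave 0.021. Atp6v0e, a small membrane subunit, had 235, 220 and 227 FPKM in S37A libraries, against 245, 228 and 233 FPKM in vector libraries, which overlap, at an adjusted p of 0.412. Its relative Atp6v0e2 averaged 22.3 ± 0.178 FPKM in S37A and 23.4 ± 0.334 in vector libraries, without overlap and at an adjusted p of 0.142. Atp6v0b encodes c'', another ring subunit, and had 184, 188 and 189 FPKM in S37A libraries, against 216, 200 and 206 FPKM in vector libraries. These groups stood apart, with a log2 difference of -0.15, an SE of 0.04 and an adjusted p of 0.0284, kept in 8 settings and lost without any 1 of the S37A libraries or without vector replicate 3. Atp6v0b lies at chr4:117884326-117887333 on the minus strand. The 250 bases before its RefSeq start, chr4:117887330-117887579, are shown for the CACGTG copies, in capitals, 36 and 18 bases before the start.
Atp6v0b: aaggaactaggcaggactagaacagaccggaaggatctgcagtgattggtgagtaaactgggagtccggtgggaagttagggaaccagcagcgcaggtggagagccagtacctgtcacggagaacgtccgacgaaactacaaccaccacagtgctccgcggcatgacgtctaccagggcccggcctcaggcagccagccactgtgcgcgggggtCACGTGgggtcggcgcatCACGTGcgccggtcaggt

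Atp6v0d1, the d subunit that joins the ring to the rotor, had 125, 127 and 124 FPKM in S37A libraries, against 134, 137 and 137 FPKM in vector libraries. The gap exceeded the spread of both groups, with a log2 difference of -0.12 and an adjusted p of 0.0298, kept in 6 settings and lost without any 1 of the S37A libraries or without vector replicate 2 or 3. The gene lies at chr8:105524465-105566047. The a subunits, which guide the pump to its membrane, pointed the other way without passing. Atp6v0a1 averaged 33.9 ± 1.4 FPKM in S37A and 32.5 ± 0.138 in vector libraries, and Atp6v0a2 17.9 ± 0.523 and 17.2 ± 0.0204 FPKM. After median-ratio scaling Atp6v0a2 had a log2 difference of 0.12 and an adjusted p of 0.051. Tcirg1, which encodes a further a subunit but has no Atp6v symbol, averaged 23.2 ± 1.5 FPKM in S37A and 25.7 ± 1.35 in vector libraries (adjusted p 0.0944). As a share of the summed FPKM of these a-subunit genes, Tcirg1 made 29.2, 32.8 and 30.7% in S37A libraries, against 35, 32.8 and 34.5% in vector libraries, so that S37A replicate 2 and vector replicate 2 nearly met.

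The whole V-ATPase sum was 1592, 1606 and 1596 FPKM in S37A libraries, against 1738, 1675 and 1681 FPKM in vector libraries. V1 genes summed to 654 ± 11.1 FPKM in S37A and 697 ± 17.5 in vector libraries, and Vo genes to 944 ± 3.96 and 1002 ± 20.7 FPKM. None of these sums overlapped, and all of them did after median-ratio scaling. Forms known mainly from other tissues were low or absent. Atp6v0a4 and Atp6v1c2 are listed at 0 in all libraries, as is the pseudogene Atp6v0c-ps2, and Atp6v1b1, Atp6v1e2 and Atp6v1g3 reached at most 0.0707 FPKM. Atp6v0d2, the d form known from osteoclasts and macrophages, lay just under the filter, with 0.576, 0.408 and 0.501 FPKM in S37A libraries, against 0.325, 0.407 and 0.225 FPKM in vector libraries. The lowest S37A library was barely above the highest vector library. Atp6v1g2, known from neurons, lay just above the filter, at 0.577 ± 0.077 FPKM in S37A and 0.549 ± 0.139 in vector libraries, and it overlaps Nfkbil1, at a mean of 7.65 FPKM, on the opposite strand.

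**Figure D3:**
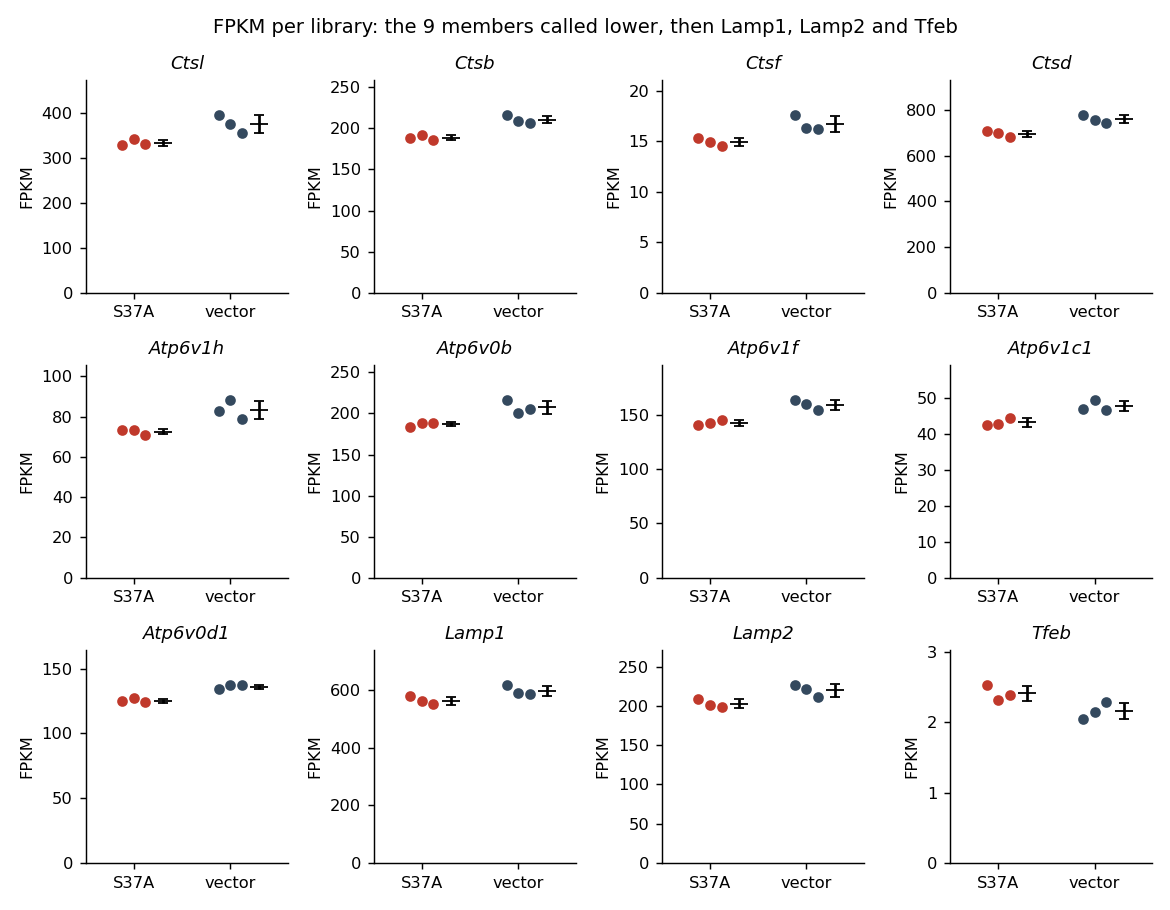
FPKM in each library (points) with the mean and SD (black, n = 3) for the 9 members called lower and for Lamp1, Lamp2 and Tfeb, S37A left and vector right, on axes from 0. All 12 genes shown have groups that do not overlap, and Tfeb is the one with S37A above vector. Tfe3 and Mitf, whose groups overlap, are not shown. Over all genes tested, 36.5% did not overlap with S37A lower and 11.3% with S37A higher.

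Neither Lamp gene nor any of the factors passed in FPKM as deposited, in limma 0 of 5 in each direction, with 1 lower and 0 higher at an unadjusted p under 0.05. Lamp1 had 579, 564 and 551 FPKM in S37A libraries, against 617, 591 and 586 FPKM in vector libraries. These do not overlap, but the log2 difference was -0.08 with an adjusted p of 0.127. Grtp1 overlaps Lamp1 on the opposite strand at a mean of 1.38 FPKM. Lamp1 (chr8:13159161-13175338, plus strand) is shown with the 250 bases before its start, chr8:13158911-13159160, since they hold CACGTG, in capitals, at 61, 45, 28 and 15 bases before the start.
Lamp1: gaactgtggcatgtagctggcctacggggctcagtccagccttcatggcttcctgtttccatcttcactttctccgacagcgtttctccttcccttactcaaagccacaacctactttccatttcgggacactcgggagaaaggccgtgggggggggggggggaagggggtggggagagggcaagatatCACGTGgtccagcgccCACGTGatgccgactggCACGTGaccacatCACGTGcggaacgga

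Lamp2 (chrX:38401357-38456454), which also serves in autophagy, had 209, 201 and 199 FPKM in S37A libraries, against 226, 222 and 211 FPKM in vector libraries. The groups were apart, and the log2 difference of -0.11 had an adjusted p of 0.0676. Lamp1 over Lamp2 was 2.78 ± 0.0236 in S37A and 2.72 ± 0.0596 in vector libraries, with overlap. Tfeb (chr17:47737030-47792419) had 2.52, 2.32 and 2.38 FPKM in S37A libraries, against 2.05, 2.15 and 2.28 FPKM in vector libraries. Every S37A library was above every vector library, but the log2 difference of 0.11 had an adjusted p of 0.149, and 0.0736 after median-ratio scaling. Tfe3 (chrX:7762560-7775202), the most abundant of the factors, had 17.3, 17.8 and 17.9 FPKM in S37A libraries, against 17.9, 17.7 and 18.3 FPKM in vector libraries. Mitf (chr6:97807052-98021349) had 1.76, 1.91 and 1.96 FPKM in S37A libraries, against 1.77, 1.61 and 1.82 FPKM in vector libraries. Both sets overlap, with log2 differences of -0.03 and 0.08 and adjusted p of 0.594 and 0.323. These factors act largely through their place in the cell, which transcript levels do not show.

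The files list transcript models, whose FPKM is an estimate of how reads are assigned, so shares were described and not tested. Among the 6 members with a model at 5% to 95% of the gene's FPKM, 2 had a model whose share did not overlap between groups, Lamp2 and Ctsa. Over all such genes this held for 515 of 2473, or 20.8%. Lamp2 gives forms with alternative ends, and its 1788-base model had 158, 148 and 142 FPKM in S37A libraries, against 180, 184 and 168 FPKM in vector libraries. Its 3614-base model, with the same start site, had 51.1, 53.5 and 57.4 FPKM in S37A libraries, against 45.4, 38.3 and 43.3 FPKM in vector libraries. The models thus moved in opposite directions, and the 3614-base model made 26.6 ± 2.2% of Lamp2 FPKM in S37A and 19.3 ± 1.78% in vector libraries. A 2190-base model is listed at 0 throughout. With only the most abundant model of each gene kept, Lamp2 passed, with a log2 difference of -0.25 and an adjusted p of 0.0317. The files do not pair these models with the named protein forms.

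For Ctsa, the 3548-base model, which begins upstream, had 14.6, 12.1 and 15.4 FPKM in S37A libraries, against 18.1, 18.7 and 18.6 FPKM in vector libraries. The 3301-base model averaged 54.9 ± 3.86 FPKM in S37A and 54.8 ± 2.39 in vector libraries. The share of the 3548-base model was 20.4 ± 3.06% in S37A and 25.2 ± 1.11% in vector libraries. Neurl2 and Pltp overlap Ctsa on the opposite strand and are listed at 0 in all 6 libraries. Model shares of Atp6v0a1, Tfeb, Tfe3 and Mitf overlapped between groups.

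**Figure D4:**
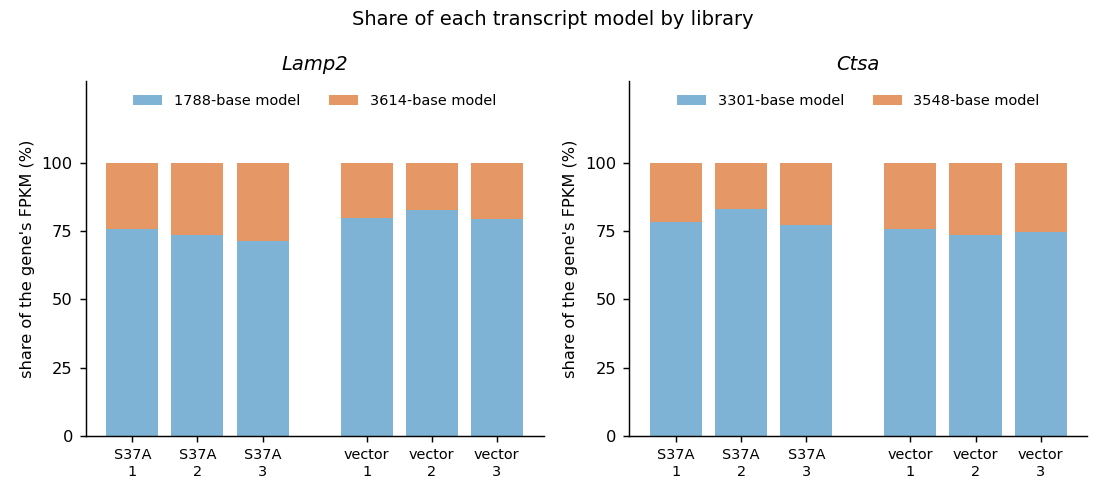
Share of each transcript model in the FPKM of Lamp2 and Ctsa, in percent, for each library, S37A left and vector right. The 3614-base Lamp2 model takes 24.4% to 28.8% in S37A and 17.2% to 20.5% in vector libraries, and the 3548-base Ctsa model 16.9% to 22.6% in S37A and 24.1% to 26.3% in vector libraries.

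RefSeq promoters, 250 bases before to 50 after the start, were at hand for 38 of the 49 members in 47 windows, and CACGTG was searched in them. The motif reads the same on both strands. It was in 9 members and in 19.1% of their windows, against 7.15% of all 32851 windows. Of the members called lower with an entry, 5 of 6 held it (Ctsd, Ctsf, Ctsl, Atp6v0b and Atp6v0d1), against 4 of 18 tested and not called (Ctsa, Atp6v0e, Atp6v1a and Lamp1) and 0 of 14 not tested. The other called members had no entry. The calls of the 5 with the motif were kept in 3 to 8 of 16 settings. Those of Ctsb and Atp6v1h, not among the members with the motif, were kept in 14 and 13. All were lost after median-ratio scaling, and a link between motif and call was not tested. By GENCODE positions, the 250 bases before the RefSeq start lie inside the gene for Ctsl, Ctsa, Atp6v0e and Atp6v1a. In these genes the motif follows the outermost annotated start. The stretches of Ctsd, Ctsf and Atp6v0b lie partly inside the gene. Which start the cells use was not tested. TCACGTG, which contains CACGTG, was in 14.9% of member windows and 3.77% of all. The M-box letters TCATGTG were in 6.38% of member windows and 3.77% of all, and the TCF/LEF core ATCAAAG in 10.6% and 3.73%, in no member called lower for either. These are matches of letters in a window. Stretches from 4 further members, in GRCm38.p6 with CACGTG in capitals, show that the flanking bases differ: the motif follows a T in Ctsa and Atp6v1a but not in Ctsf or Ctsl.
Ctsf (chr19:4855066-4855111, plus strand): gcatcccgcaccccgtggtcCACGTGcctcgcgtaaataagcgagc
Ctsl (chr13:64370731-64370770, minus strand): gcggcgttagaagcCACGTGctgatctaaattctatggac
Ctsa (chr2:164833741-164833772, plus strand): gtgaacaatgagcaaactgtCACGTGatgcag
Atp6v1a (chr16:44139365-44139410, minus strand): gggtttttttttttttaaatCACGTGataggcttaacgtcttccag
Presence of the motif did not go with a call in every member: Lamp1, with 4 copies, and Atp6v1a, with 1, did not pass.

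Other genes of the pathway were counted from further lists. Over all genes tested, 19.9% were lower and 6.06% higher, with a median log2 difference of -0.07. After median-ratio scaling these were 8.07%, 10.4% and -0.00. Of 35 lysosomal hydrolases outside the cathepsins, 9 (25.7%) were lower and 2 (5.71%) higher, or 3 and 2 after median-ratio scaling. Gla, an α-galactosidase, averaged 12.8 ± 0.136 FPKM in S37A and 15.9 ± 0.879 in vector libraries (adjusted p 0.00904), while Ids, a sulfatase, averaged 10.2 ± 0.3 and 8.1 ± 0.556 FPKM (adjusted p 0.0123). Both calls held in all 16 alternative settings. Of 15 other lysosomal membrane proteins, 8 (53.3%) were lower and 1 (6.67%) was higher, with a median log2 difference of -0.17. After median-ratio scaling 2 were lower and 1 was higher, with a median of -0.11. Mcoln1, the lysosomal calcium channel, averaged 17.8 ± 0.64 FPKM in S37A and 21.2 ± 1.16 in vector libraries (adjusted p 0.0167, and 0.0557 without S37A replicate 3). Of 11 tested genes linked to the V-ATPase but without an Atp6v symbol, Tcirg1 among them, 1 (9.09%) was higher and 2 (18.2%) were lower, or 1 and 0 after median-ratio scaling. The higher one was Atp6ap2, an accessory subunit also called the prorenin receptor and linked to Wnt receptors, with 50.1, 51.7 and 53.2 FPKM in S37A libraries, against 45.8, 40.4 and 44.5 FPKM in vector libraries. Its log2 difference was 0.24 with an adjusted p of 0.0177, and 0.32 and 0.0112 after median-ratio scaling, and the adjusted p was 0.0565 and 0.0664 without S37A replicates 2 and 3. It was the opposite of the direction of the 5 V-ATPase subunits that passed.

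Among 7 endogenous cathepsin inhibitors tested, 1 was lower and 0 were higher. The share lower was 14.3%, as for the sorting genes below, against 19.9% of all genes. Cstb, cystatin B, which blocks cysteine cathepsins in the cytosol, had 356, 351 and 358 FPKM in S37A libraries, against 400, 418 and 405 FPKM in vector libraries. Its adjusted p was 0.00927, and 0.0305 after median-ratio scaling. Of 7 genes of mannose 6-phosphate sorting, which brings hydrolases to lysosomes, only the receptor Igf2r was lower, at 33.4 ± 0.825 FPKM in S37A and 37.1 ± 1.17 in vector libraries (adjusted p 0.0283), a call kept in 8 of 16 settings and lost after median-ratio scaling (0.209) and without S37A replicate 2 or 3 or vector replicate 1 or 2. Of 18 genes around MiT/TFE regulation, 4 (22.2%) were lower, or 3 lower and 1 higher after median-ratio scaling. Fnip2, a partner of folliculin, and Rragd, a Rag GTPase, averaged 3.66 ± 0.185 and 1.04 ± 0.074 FPKM in S37A, against 5.11 ± 0.322 and 1.51 ± 0.108 FPKM in vector libraries (adjusted p 0.0073 and 0.0145, for Rragd 0.0505 without S37A replicate 2). Tfec, the remaining relative of Tfeb, averaged 0.395 ± 0.0641 FPKM in S37A and 0.736 ± 0.0886 in vector libraries (adjusted p 0.0161, and 0.0554 and 0.0576 without S37A replicates 2 and 3). Of 20 autophagy genes, 6 (30%) were lower and 0 higher, or 4 and 1 after median-ratio scaling. Sqstm1, which encodes the autophagy receptor p62, had the largest difference of the list, with 753, 797 and 771 FPKM in S37A libraries, against 1085, 1202 and 1059 FPKM in vector libraries, an adjusted p of 0.00298 and a call in all 16 settings.

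Among markers of other cell types, those of macrophages differed most between the groups. Over all genes tested, 19.9% were lower and 6.06% higher in FPKM as deposited. Of 21 macrophage markers, 13 were tested, 10 were higher in S37A libraries and 0 lower, also after median-ratio scaling. Their summed level was 66.7 to 74.9 FPKM in S37A and 26.8 to 32.8 FPKM in vector libraries, and none of the 21 was at 0 in all libraries. Lyz2 was the most abundant of them, with 36.7 ± 2.63 FPKM in S37A and 14.1 ± 1.91 in vector libraries, while Adgre1 (F4/80) and Csf1r averaged 0.235 ± 0.0938 and 0.675 ± 0.0631 FPKM in S37A, against 0.0786 ± 0.0328 and 0.497 ± 0.0741 FPKM in vector libraries. Ctss, the cathepsin of antigen-presenting cells that the choice of genes left out, had 6.42, 4.93 and 4.53 FPKM in S37A libraries, against 1.45, 1.71 and 1.35 FPKM in vector libraries, opposite to the 4 cathepsins that were lower. Macrophages are rich in several of the cathepsins above, and their part in the members' values was not tested. In RNA from mixed cells, fewer cells of a type and less RNA per cell cannot be told apart. Stromal markers summed to 8551 to 8823 FPKM in S37A and 7416 to 7896 FPKM in vector libraries, with 3 of 10 higher and 1 lower, or 5 and 0 after median-ratio scaling. Endothelial markers summed to 95.4 to 99.1 FPKM in S37A and 99.6 to 113 FPKM in vector libraries, with 0 of 7 called in limma and 1 lower at an unadjusted p under 0.05. Of 6 epithelial markers 0 were called and 0 had an unadjusted p under 0.05, and the 12 lymphocyte markers were too low to test. Of 10 mast cell and granulocyte markers only S100a8 was tested, at 0.859 ± 0.154 FPKM in S37A and 1.4 ± 0.234 in vector libraries. Its limma call (adjusted p 0.0282) was lost in 8 of 15 settings. Of 6 non-coding RNAs taken as a sign of RNA make-up, 2 were lower, Snhg1 and Gas5, or 1 after median-ratio scaling, with 73 ± 2.16 and 23.8 ± 1.58 FPKM in S37A, against 119 ± 12.1 and 27.3 ± 1.01 FPKM in vector libraries. The Snhg1 call held in all 16 settings, and that of Gas5 was lost in 9, among them median-ratio scaling (adjusted p 0.107) and any single library left out except vector replicate 1. The part of these in the members' values was not tested either.

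The authors' confidence interval of each FPKM, which does not cover the spread between libraries, reached 0.811% to 5.45% of the value to either side for the 9 members called lower. Over the 26 tested members with a single model it reached up to 33.7%, so that small differences of the lowest genes were not detectable at this depth. Among the 9 called lower, all S37A intervals lay apart from all vector intervals for 5, and not for Ctsb, Ctsf, Atp6v1c1 or Atp6v1f.

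**Figure D5:**
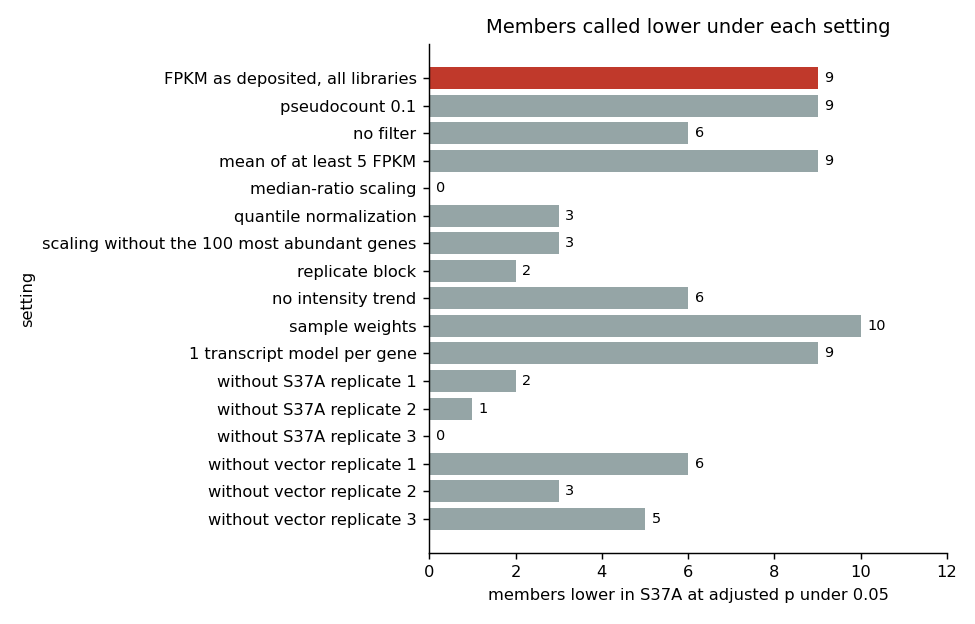
Number of members lower in S37A at an adjusted p under 0.05 under each setting, with FPKM as deposited and all 6 libraries in red. The count is 9 there, 0 after median-ratio scaling and without S37A replicate 3, and at most 10, with sample weights.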

How the data were processed

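Per the labels' protocols, RNA of primary prostate stromal cells was turned into cDNA with SMART-Seq v4, a kit that does not mark strand, and sequenced on an Illumina instrument. The submitters' processing notes name bcl2fastq 1.8.3, TopHat, Cufflinks and the mm10 build. Per the file headers, the authors deposited FPKM of 34535 transcript models with confidence bounds. Groups and replicate numbers come from the sample titles. FPKM was summed by symbol, and 5 symbols without an OK status were left out. Symbols averaging 0.5 FPKM or more across libraries, 12022 in number, entered a limma 3.58.1 fit (R 4.3.3) to log2(FPKM + 1) that used an intensity trend and Benjamini-Hochberg adjustment over all of them, with calls at 0.05. That scale understates changes of low genes. Fragment numbers inferred from the intervals were whole (within 0.02) for 89.4% to 90.6% of values up to about 10 fragments. From 30 to 100 fragments only 5.8% to 7.9% were, so no count model was run. The fragment totals inferred from interval widths rest on an assumed interval level and treat the width as counting error only. Some genes depart from this: Ctsb, with a 4743-base model, had 2211 to 2247 such fragments per library, and the shorter Ctsl 25156 to 34799. The script was tested on simulated data.

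Members and lists were chosen with earlier results of these data known. Every member is named. Values in every library are given for members that passed, the Lamp and MiT/TFE genes, and the 3 most abundant cathepsins and V-ATPase genes. From other lists, genes come from the 3 with the smallest p. Some further ones, such as Col1a1, Vim, Lum, Adgre1, Csf1r, Ctss, Tcirg1 and the overlapping genes, were named after their values were seen. Positions of genes were taken from GENCODE M21 for mm10, and promoters from RefSeq, GRCm38.p6.

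Alternatives were a pseudocount of 0.1, no filter, a filter at a mean of 5 FPKM, median-ratio scaling, quantile normalization, scaling without the 100 most abundant genes, the replicate block, no trend, sample weights, 1 model per gene, and each library left out.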

Additional observations from a re-analysis of the deposited data

How the results depend on the processing

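Under all 16 alternatives the differences of the 9 members called lower stayed negative. The number of cathepsins lower in S37A, 4, became 0 with median-ratio scaling, 1 with no filter, quantile normalization, scaling without the 100 most abundant genes or the replicate block, and 2 with no trend. Leaving out single libraries gave 0 to 3. The number of V-ATPase genes lower, 5, became 0 with median-ratio scaling, 2 with quantile normalization or scaling without the 100 most abundant genes, 1 with the replicate block, and 0 to 5 with single libraries left out. For the Lamp and MiT/TFE genes, 0 lower became 1 with 1 model per gene. Members lower in total numbered 2, 1 and 0 without S37A replicates 1, 2 and 3, with 11, 11 and 9 at an unadjusted p under 0.05, and 6, 3 and 5 without vector replicates 1, 2 and 3.

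Of all genes, 729 were higher and 2393 lower. These counts were 1251 and 970 with median-ratio scaling, 1094 and 957 with quantile normalization, 442 and 1193 with the replicate block, and 1238 and 3655 with sample weights. The number lower was 1513 with scaling without the 100 most abundant genes and 1491 with 1 model per gene. Single libraries left out gave 298 to 747 higher and 606 to 2401 lower. The cause of these changes was not tested. Whether the replicate numbers pair the samples is not given in the sources used here. Deviations of same-numbered libraries correlated at -0.12, 0.0207 and 0.104, and those of differently numbered libraries at -0.126 to 0.0974. With 3 libraries per group, this check cannot decide it. Under the block 2 members, not 9, were lower.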
